A study of Homo sapiens with 8 samples.

Results

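Integrins and cadherins are the principal receptors that attach cells to the extracellular matrix and to each other. Their ribosome footprints were examined in the kidney rhabdoid tumor line G401. These cells have lost SMARCB1, a core subunit of the mSWI/SNF chromatin remodeling complexes. Members were chosen by symbol alone, as the genes named ITGA or ITGB with a number, the integrins ITGAE, ITGAL, ITGAM, ITGAV, ITGAX, ITGAD and ITGA2B, and the genes named CDH with a number. This gave 49 of the 20719 gene IDs listed, namely 18 integrin alpha subunits, 8 integrin beta subunits and 23 cadherins. The symbol rule uses no measured value, but it was set with earlier results of these data known.

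All cells carried a Tet-On cassette. The SMARCB1 line expresses SMARCB1 upon addition of doxycycline and the GFP line expresses GFP instead, and cells of each line received 0.1 μg/ml doxycycline (Dox) or DMSO for 12 h. The 4 groups are therefore SMARCB1 Dox, SMARCB1 DMSO, GFP Dox and GFP DMSO, with 2 libraries in each, and 6 plates were pooled per condition. Translating ribosomes were captured with RiboLace and the protected fragments counted on coding sequences, so that a value describes ribosome occupancy and combines mRNA abundance with its translation. The paper gives the experiments as done in duplicate. No source used here says whether a line is a clone or a mixed population, or whether the 2 libraries of a group came from separate cultures. The p-values therefore measure the spread between these libraries, which may be technical.

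An integrin is a heterodimer of an alpha and a beta subunit. The pair decides the ligand: ITGA5 with ITGB1 binds fibronectin, ITGA6 with ITGB1 or ITGB4 binds laminin, and ITGAV with ITGB1, ITGB3, ITGB5, ITGB6 or ITGB8 binds RGD-containing proteins such as vitronectin. Talins and kindlins link the beta tail to actin. Cadherins mediate calcium-dependent adhesion between cells and are anchored to actin by catenins.

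The libraries held 5924443 to 14000039 counts on genes. Multiply aligned reads amounted to 56.4% of the entries of GFP Dox replicate 1 and to 25.6% to 39.7% in the other 7 libraries. Integrins took 0.246% to 0.363% of the gene counts, a share that overlapped between the lines and between the treatments. Cadherins took 0.00582% to 0.00714% in the SMARCB1 line and less in the GFP line, 0.00421% to 0.00564%. These are shares of unscaled totals. With totals scaled by TMM, both tested cadherins overlapped between the lines. SMARCB1, the check on the labels, had 2553 and 1750 counts in SMARCB1 Dox and 0 in each of the other 6 libraries.

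Of the 49 members, 13 passed the filter on low counts and were tested (11 integrins and 2 cadherins), 27 had at least 1 count but were not tested, and 9 had 0 counts in all 8 libraries. Levels are given as CPM, the counts of a gene relative to the library total after TMM scaling, and levels of different genes are compared only per kb of coding sequence.

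ITGB1, the shared partner of many alpha subunits, was the integrin with the highest level per length at 684 CPM per kb averaged over the 8 libraries, above 98.5% of all genes tested. ITGB1 (ENSG00000150093, chromosome 10 of GRCh38, 32887273 to 33005792, minus strand) had 2059 and 1982 CPM in SMARCB1 Dox, 2323 and 1677 in SMARCB1 DMSO, 2494 and 1514 in GFP Dox, and 1687 and 1507 in GFP DMSO. The lines overlapped, although both SMARCB1 Dox libraries lay above both GFP DMSO libraries. Of the 28-base windows in its longest coding sequence, 22.7% also occur in transcripts of genes elsewhere, most of them in the pseudogene ITGB1P1, and reads from such windows could align in more than 1 place.

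ITGAV, the alpha subunit of the RGD-binding integrins, followed at 310 CPM per kb, above 96.0% of genes tested. ITGAV (ENSG00000138448, chromosome 2, 186590010 to 186680901, plus strand) had 890 and 868 CPM in SMARCB1 Dox, 900 and 681 in SMARCB1 DMSO, 1266 and 1136 in GFP Dox, and 1194 and 1102 in GFP DMSO. Every library of the GFP line lay above every library of the SMARCB1 line, although the difference was not called in either comparison of the lines, with a log2 difference of -0.54 ± 0.25 (SE) under DMSO and -0.45 ± 0.25 under Dox (edgeR adjusted p = 0.339 and 0.350).

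The other members were far below this pair. ITGA5 averaged 28.02 CPM per kb, ITGA6 21.3, CDH4 17.2, ITGB5 15.2, ITGAE 6.70, ITGA3 3.97, ITGB6 3.42, CDH24 3.16, ITGA9 0.771, ITGA4 0.310 and ITGA10 0.204, where the median over all genes tested was 17.2. In this order the 8-library ranges of ITGA5, ITGA6, CDH4 and ITGB5 overlap, so their ranks rest on the mean over both lines, and ITGA6 stood at 38.3 CPM per kb in the SMARCB1 line against 4.38 in the other. Lower in the order the lines also ranked members differently. ITGB6 was at 0 in the SMARCB1 line and at 6.83 CPM per kb in the other, beside 6.73 and 6.67 for ITGAE. ITGA4, ITGA10 and ITGA9 stood at 0.619, 0.309 and 0.303 CPM per kb in the SMARCB1 line, whereas in the GFP line ITGA9 had 1.24, ITGA10 0.100 and ITGA4 0.

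**Figure D1:**
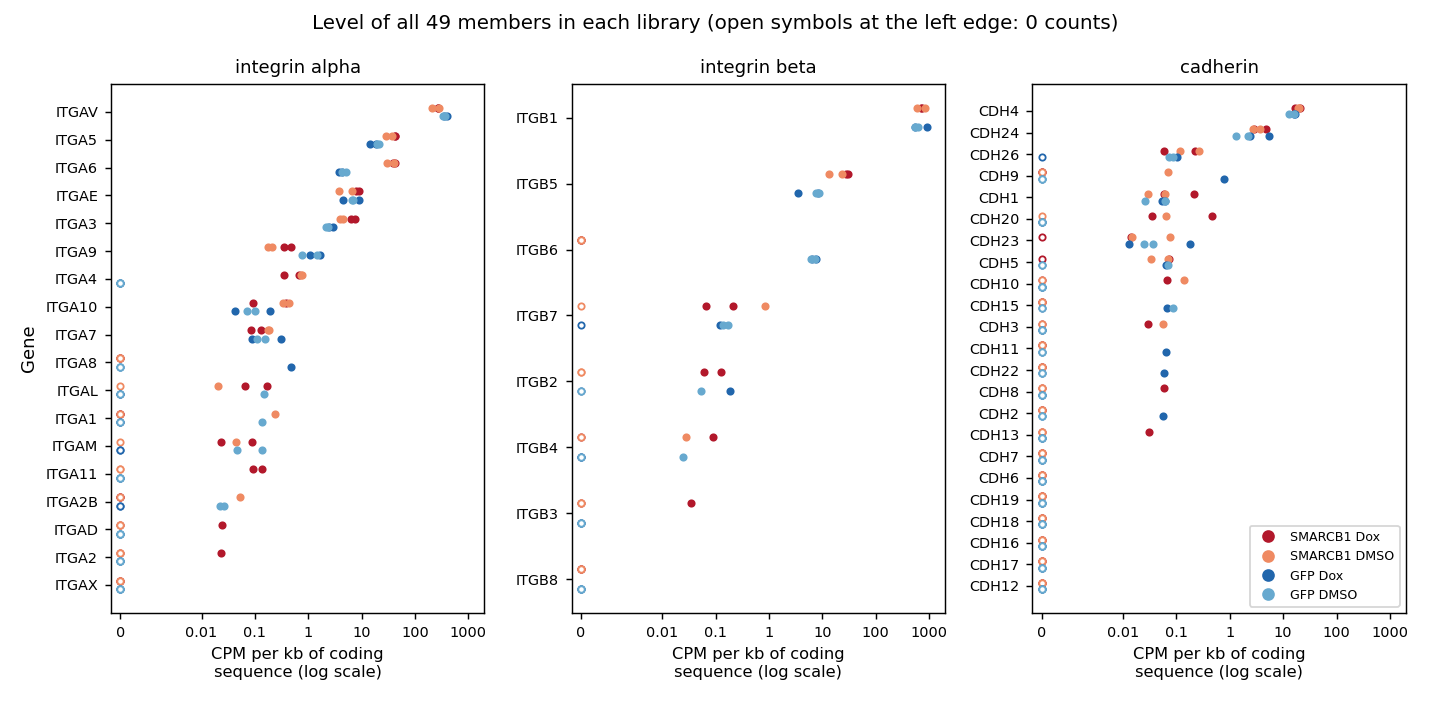
Level of all 49 members in CPM per kb of coding sequence (horizontal log axis) for integrin alpha subunits, integrin beta subunits and cadherins, sorted by their mean. Each point is 1 of the 8 libraries, colored by group, and open symbols at the left edge are 0 counts. ITGB1 and ITGAV stand above all others, and 9 members are at 0 throughout.

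Members below the filter had at most 44 counts in total over the 8 libraries, a total reached by ITGA7, the laminin-binding integrin of muscle. The integrins among them with at least 1 count were ITGA1, ITGA2, ITGA2B, ITGA7, ITGA8, ITGA11, ITGAD, ITGAL, ITGAM, ITGB2, ITGB3, ITGB4 and ITGB7. The leukocyte subunits were close to the floor: ITGB2 had 0 to 4 counts per library, ITGAL 0 to 8 and ITGAM 0 to 7, and ITGAX had 0 in all. ITGB4, the hemidesmosomal partner of ITGA6, had 0 to 6 counts. ITGB8 was at 0 in all libraries, and the single count of ITGB3 does not measure that gene, because 2266 of its 2472 coding bases are shared with an annotated readthrough gene and reads there are ambiguous to a strict counting mode.

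Among cadherins, 14 had counts but were not tested and 7 (CDH6, CDH7, CDH12, CDH16, CDH17, CDH18 and CDH19) had 0 in all libraries. The 14 were CDH1, CDH2, CDH3, CDH5, CDH8, CDH9, CDH10, CDH11, CDH13, CDH15, CDH20, CDH22, CDH23 and CDH26. CDH1 (E-cadherin) had 1 to 7 counts per library, while CDH2 (N-cadherin), the mesenchymal CDH11 and the GPI-anchored CDH13 (T-cadherin) each had 1 count in a single library. CDH5, the cadherin of endothelium, had 0 to 2. A gene at 0 in all 8 libraries could hold up to 0.0392 CPM, the level of 3 counts over all libraries, and such limits cover counting error only. Several of these genes had most of their counts in 1 library: GFP Dox replicate 1 held 11 of the 12 counts of CDH9 and all 9 of ITGA8, and SMARCB1 Dox replicate 2 held 7 of the 10 of CDH20. ITGB7 had 12 of its 31 in SMARCB1 DMSO replicate 1 and ITGAL 8 of its 16 in GFP DMSO replicate 2.

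CDH4 (R-cadherin, ENSG00000179242, chromosome 20, 61252261 to 61940617, plus strand) was the predominant cadherin, with 45.8 and 58.6 CPM in SMARCB1 Dox, 56.5 and 53.2 in SMARCB1 DMSO, 47.0 and 44.2 in GFP Dox, and 35.2 and 43.7 in GFP DMSO. It made up 76.0% to 85.3% of the summed cadherin CPM per kb in the SMARCB1 line, compared with 71.9% to 91.2% in GFP cells. Its lines overlapped, and the log2 difference between them was 0.47 ± 0.24 under DMSO and 0.19 ± 0.25 under Dox (edgeR adjusted p = 0.439 and 0.738).

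CDH24, a type II cadherin, came next with 11.6 and 6.97 CPM in SMARCB1 Dox, 9.17 and 6.78 in SMARCB1 DMSO, 13.2 and 5.77 in GFP Dox, and 5.34 and 3.19 in GFP DMSO. Both GFP DMSO libraries lay below the other 6, the remaining groups overlapped, and the replicates of GFP Dox were farther apart than those of any other group. CDH26 was the third cadherin by level, at 0.115 CPM per kb, with 2 and 4 counts in SMARCB1 Dox, 2 and 10 in SMARCB1 DMSO, 0 and 2 in GFP Dox, and 3 and 3 in GFP DMSO.

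**Figure D2:**
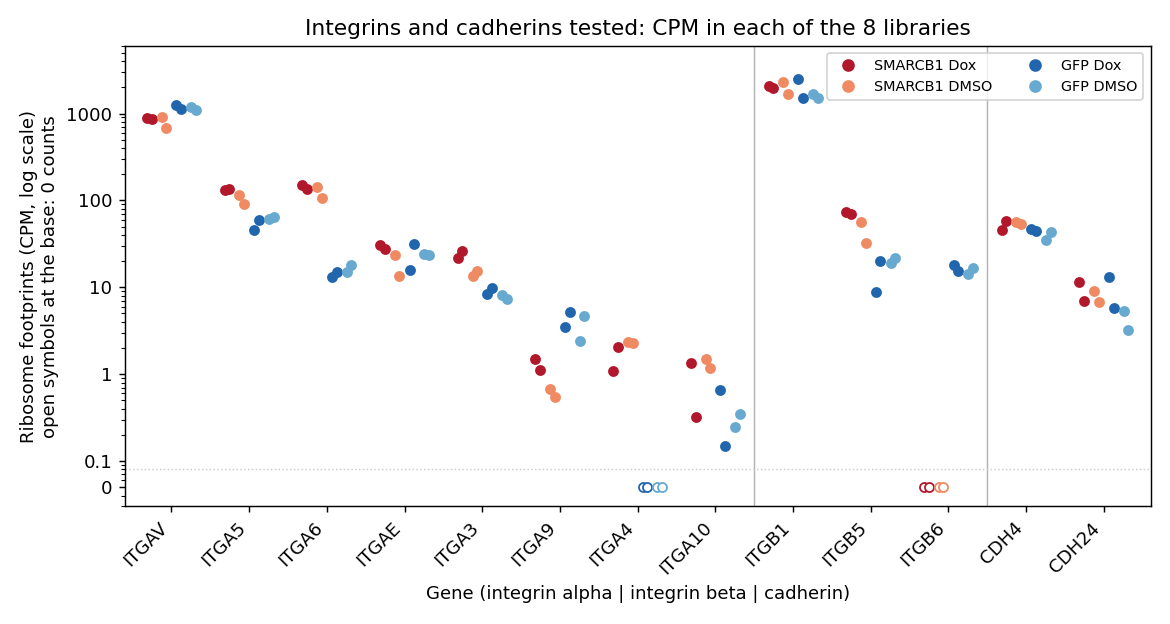
CPM (vertical log axis) of the 13 tested members, grouped as integrin alpha subunits, integrin beta subunits and cadherins and sorted by mean within each. Each point is 1 library colored by group, and open symbols at the base are 0 counts. ITGA4 is at 0 in all GFP-line libraries and ITGB6 at 0 in all SMARCB1-line libraries, whereas ITGB1 and CDH4 overlap between the lines.

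No member was called between Dox and DMSO at the thresholds used, a Benjamini-Hochberg adjusted p below 0.05 and a fold above 2. In the SMARCB1 line 0 of the 13 members were called between Dox and DMSO (background 0.018% of the 11097 genes tested), in the GFP line 0 (background 0%), and for the difference between these effects 0 (background 0%). DESeq2 also called 0 members in all 3 comparisons (background 0.306%, 0% and 0.00901% in the same order). At an unadjusted p below 0.05, edgeR gave 1 member in each (background 4.97%, 2.16% and 3.99%).

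In the SMARCB1 line that member was ITGA3, a laminin-binding alpha subunit. ITGA3 (chromosome 17, 50055968 to 50090481, plus strand) had 21.6 and 25.8 CPM in SMARCB1 Dox and 13.5 and 15.3 in SMARCB1 DMSO, a log2 difference of 0.71 ± 0.31 (SE, edgeR adjusted p = 0.943). Its GFP line had 8.43 and 9.90 CPM with Dox and 8.06 and 7.36 with DMSO, a log2 difference of 0.25 ± 0.32. The Dox libraries lay above the DMSO libraries in both lines, and the difference between the effects was 0.46 ± 0.44 (adjusted p = 0.981).

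ITGB5, which pairs with ITGAV to bind vitronectin, had the smallest p for the difference between the lines' Dox effects. Its level was 73.3 and 69.4 CPM in SMARCB1 Dox, 56.9 and 32.2 in SMARCB1 DMSO, 8.76 and 20.1 in GFP Dox, and 19.0 and 21.6 in GFP DMSO. The log2 difference between Dox and DMSO was 0.69 ± 0.35 in SMARCB1 cells and -0.49 ± 0.37 in GFP cells, and these effects differed by 1.17 ± 0.50 (edgeR adjusted p = 0.981). GFP Dox replicate 1 was the lowest of the 8 libraries. Without it the effect in GFP cells was -0.016, and without GFP Dox replicate 2 it was -1.21. The effect in SMARCB1 cells was 1.14 without SMARCB1 DMSO replicate 1 and 0.33 without SMARCB1 DMSO replicate 2.

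CDH24 had the smallest p in GFP cells, with a log2 difference of 1.15 ± 0.49 between GFP Dox and GFP DMSO (edgeR adjusted p = 1). That value was 0.44 without GFP Dox replicate 1 and 1.63 without GFP Dox replicate 2, and 1.56 or 0.82 without GFP DMSO replicate 1 or 2. ITGB6 had 0 counts throughout the SMARCB1 line and ITGA4 throughout the GFP line, so each line gives a Dox effect for 12 tested members. These ran from -0.58 to 1.15 on the log2 scale in the SMARCB1 line, with a median of 0.22 beside -0.02 for all genes, and from -0.49 to 1.15 in the GFP line, with a median of 0.16 beside 0.02. ITGA9 stood at the top of the first range at 1.15 ± 0.76, on levels of 1.51 and 1.11 CPM against 0.667 and 0.545. The standard error of the Dox effect in the SMARCB1 line was 0.23 to 0.35 for ITGB1, ITGAV, ITGA5, ITGA6, CDH4, ITGB5, ITGAE and ITGA3 and 0.47 for CDH24.

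The members differed between the lines. The SMARCB1 DMSO and GFP DMSO groups differ in the inducible cassette and in the history of the line, not in SMARCB1 counts, which were 0 in both. Under DMSO 3 of the 13 tested members were called (background 4.97%): ITGA6 and ITGA4 were higher in the SMARCB1 line (background 2.49% of genes higher) and ITGB6 was lower (background 2.49% lower). Under Dox 5 were called (background 6.08%): ITGA6, ITGB5, ITGA5 and ITGA3 were higher (background 3.1%) and ITGB6 was lower (background 2.98%). DESeq2 called 5 members under DMSO (background 5.73%) and 6 under Dox (background 7.29%). The libraries of the 2 comparisons are distinct, and 2 members, ITGA6 and ITGB6, were called in both in the same direction (background 3.78%). ITGA4 and ITGB6 passed the filter only through the line in which they had counts, so the filter partly set their place in these counts. With 1 line per construct, the cassette and the line cannot be told apart, nor can fewer cells that express a gene and less of its RNA per cell.

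**Figure D3:**
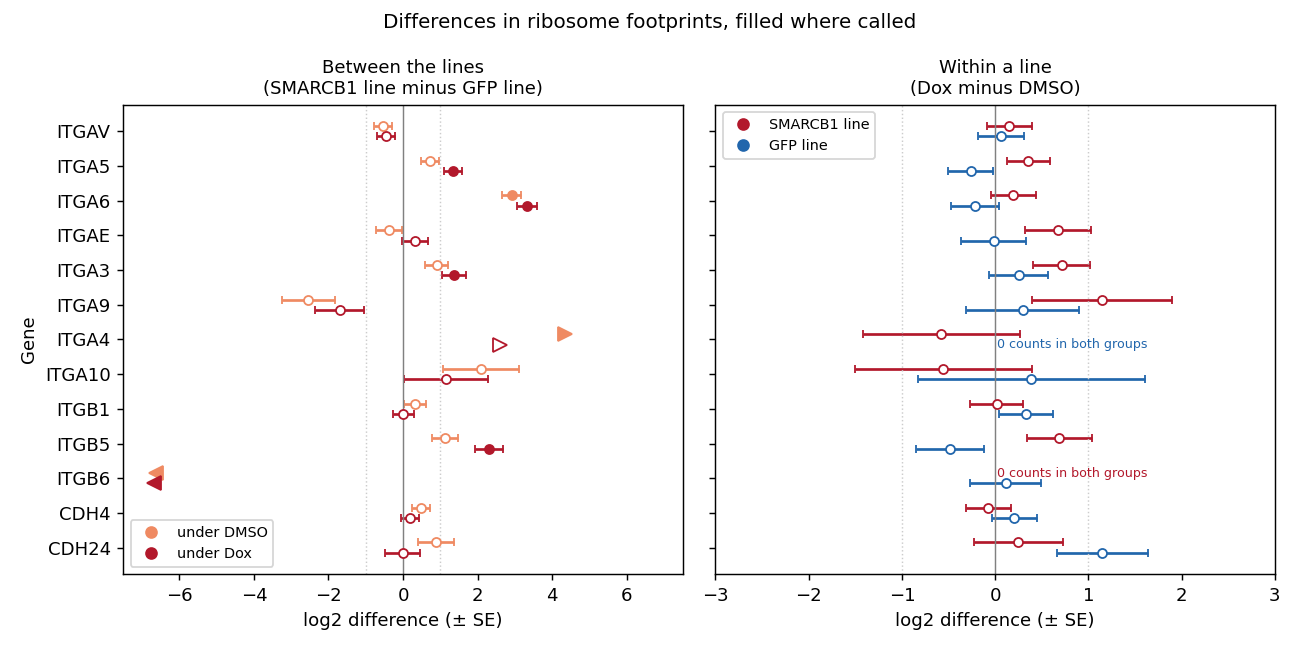
Log2 differences in footprints with their standard errors for the 13 tested members, between the lines (left) and between Dox and DMSO within a line (right), on horizontal axes of different range. Filled symbols passed both thresholds and dotted lines mark a fold of 2. Triangles are lower bounds of the size for ITGA4 and ITGB6, whose counts were 0 in all libraries of 1 line. ITGA6 and ITGB6 are filled under both treatments on the left and no symbol is filled on the right.

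ITGA6, the laminin-binding alpha subunit, carried the strongest excess in the SMARCB1 line among members with counts in both lines. ITGA6 (ENSG00000091409, chromosome 2, 172427354 to 172506459, plus strand) had 149 and 137 CPM in SMARCB1 Dox and 144 and 106 in SMARCB1 DMSO, compared with 13.2 and 15.1 in GFP Dox and 15.0 and 18.0 in GFP DMSO. The lines did not overlap. The log2 difference was 2.92 ± 0.26 under DMSO, a fold of 7.56 (edgeR adjusted p = 4.43e-06), and 3.33 ± 0.27 under Dox, a fold of 10.1 (adjusted p = 1.94e-06). Dox against DMSO gave 0.20 ± 0.24 for ITGA6 in SMARCB1 cells and -0.22 ± 0.26 in GFP cells.

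ITGB6, the partner of ITGAV in an integrin that activates latent TGF-beta and is typical of epithelia, had counts in the GFP line and in no library of the SMARCB1 line. ITGB6 (ENSG00000115221, chromosome 2, 160099667 to 160200313, minus strand) had 110 and 104 counts in GFP Dox and 173 and 242 in GFP DMSO, or 18.2, 15.4, 14.2 and 16.8 CPM, and 0 counts in all 4 SMARCB1-line libraries. It was at least 98.1-fold lower in SMARCB1 DMSO than in GFP DMSO (edgeR adjusted p = 9.73e-06) and at least 102-fold lower in SMARCB1 Dox than in GFP Dox (adjusted p = 1.12e-05), taking 3 counts over a group as the limit. These bounds lean on depth: without the deeper library at 0 counts, SMARCB1 DMSO replicate 2 or SMARCB1 Dox replicate 1, they were 31.2-fold and 35.1-fold, and without the shallower one, replicate 1 or replicate 2 respectively, 66.9-fold and 66.6-fold. Among the GFP libraries the Dox effect was 0.11 ± 0.38.

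ITGA4, which pairs with ITGB1 or ITGB7 to bind VCAM1 and fibronectin, had the opposite distribution at a low level. ITGA4 (ENSG00000115232, chromosome 2, 181457202 to 181538940, plus strand) had 13 and 13 counts in SMARCB1 Dox and 14 and 29 in SMARCB1 DMSO, or 1.09, 2.06, 2.33 and 2.26 CPM, and 0 counts in all 4 GFP-line libraries. It was at least 20.2-fold higher in SMARCB1 DMSO than in GFP DMSO (edgeR adjusted p = 0.0093). Without GFP DMSO replicate 1 or 2 that bound was 10.96-fold or 9.25-fold. The call was lost on leaving out any 1 of the 4 DMSO libraries, in fits that left 1 library in a group and called fewer genes in all. Under Dox the bound was 6.08-fold and the difference was not called (adjusted p = 0.0510). Without GFP Dox replicate 1 or 2 that bound was 3.21-fold or 2.87-fold. ITGB6 and ITGA4 passed the filter only through the line in which they had counts.

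The sequences upstream of the RefSeq starts are shown because ITGB6 and ITGA4 each had counts in 1 line alone. Each is the 250 bases before the RefSeq transcript start on GRCh38.p14, 5′ to 3′ on the strand of the gene, with CG dinucleotides in capitals. The first lies at chr2:160200273-160200522 on the minus strand and the second at chr2:181457136-181457385 on the plus strand. In GENCODE annotation 44 the genes start inside these windows, ITGB6 at 160200313 and ITGA4 at 181457202. The later bases of each window therefore lie within the gene of that annotation.
ITGB6: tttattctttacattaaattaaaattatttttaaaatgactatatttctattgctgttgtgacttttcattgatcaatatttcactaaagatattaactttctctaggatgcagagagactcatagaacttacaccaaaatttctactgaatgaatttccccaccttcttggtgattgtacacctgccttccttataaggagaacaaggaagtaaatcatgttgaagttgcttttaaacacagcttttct
ITGA4: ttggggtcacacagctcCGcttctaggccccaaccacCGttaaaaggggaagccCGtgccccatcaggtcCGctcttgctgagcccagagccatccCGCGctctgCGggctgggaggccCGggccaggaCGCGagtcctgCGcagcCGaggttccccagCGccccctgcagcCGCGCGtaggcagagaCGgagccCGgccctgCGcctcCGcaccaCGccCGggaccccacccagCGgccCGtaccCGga
The ITGB6 window holds 0 CG dinucleotides at 30% GC, and 6.06% of the 35116 promoter windows of the same table hold as few. The ITGA4 window holds 25 at 72.8% GC, and 21.6% hold as many. The median window has 11 at 58% GC. The E-box CACCTG or its reverse complement CAGGTG was searched as a motif that SNAI and ZEB repressors bind. It occurs 1 time in the ITGB6 window and not in that of ITGA4, and 17.5% of windows hold it. Of the 13 tested members, 10 had a window, and ITGA3, ITGA9 and CDH24 were not searched. Among the other members searched, the motif occurs 2 times in 1 window of ITGA6 and 1 time in 1 window each of ITGB5 and CDH4. Further windows of ITGA6, ITGB5 and CDH4 lack it. ITGA6 and ITGB5 lay higher in the SMARCB1 line, opposite to ITGB6, and CDH4 overlapped between the lines. A relation of the motif to the line differences was not tested. No methylation or binding data were analysed here.

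ITGB5 was higher in the SMARCB1 line in all 4 libraries, from 32.2 to 73.3 CPM against 8.76 to 21.6. The log2 difference was 2.30 ± 0.37 under Dox (edgeR adjusted p = 0.00121) and 1.12 ± 0.35 under DMSO (adjusted p = 0.0993). The value under Dox depended on the GFP Dox replicates, being 1.83 without replicate 1 and 3.03 without replicate 2. Whether the excess differs with treatment is the test of the Dox effects given above, which did not pass.

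ITGA5, the fibronectin-binding alpha subunit, had 133 and 134 CPM in SMARCB1 Dox, 117 and 91.6 in SMARCB1 DMSO, 45.8 and 58.8 in GFP Dox, and 60.4 and 65.2 in GFP DMSO. The lines did not overlap. ITGA5 was higher by 1.35 ± 0.24 on the log2 scale under Dox (edgeR adjusted p = 0.00252) and by 0.73 ± 0.24 under DMSO, which was not called (adjusted p = 0.110). Dox against DMSO gave 0.36 ± 0.23 for ITGA5 in SMARCB1 cells and -0.26 ± 0.24 in GFP cells. These effects differed by 0.62 ± 0.33, which was not called (adjusted p = 0.981). ITGA3, whose values are given above, was higher by 1.36 ± 0.32 under Dox (adjusted p = 0.0166), and its log2 difference under DMSO was 0.90 ± 0.31 (adjusted p = 0.142). The ITGA3 call under Dox was lost without SMARCB1 Dox replicate 1, SMARCB1 Dox replicate 2 or GFP Dox replicate 1. Those fits left 1 library in a group and also called fewer genes in all. The ITGA3 call was lost as well in a fit of the 2 groups alone (edgeR adjusted p = 0.0502).

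ITGA9, the alpha subunit that binds tenascin-C and VCAM1, had 1.51, 1.11, 0.667 and 0.545 CPM in the SMARCB1 line and 3.47, 5.17, 2.38 and 4.65 in GFP cells, with Dox before DMSO. The lines did not overlap, and the log2 difference was -2.55 ± 0.71 under DMSO and -1.69 ± 0.66 under Dox (edgeR adjusted p = 0.0543 and 0.167). ITGAE, the alpha subunit of the E-cadherin receptor of T cells, overlapped between the lines with 31.0, 27.3, 23.5 and 13.4 CPM against 15.7, 31.2, 23.9 and 23.6. ITGA10, a collagen-binding subunit, overlapped as well, from 0.317 to 1.50 CPM against 0.148 to 0.661.

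The 4 libraries of each line did not overlap for 8 of the 13 tested members (background 17.6%). Of these, ITGA3, ITGA4, ITGA5, ITGA6 and ITGB5 lay higher in the SMARCB1 line (background 8.61%) and ITGA9, ITGAV and ITGB6 lower (background 8.95%). In a comparison of the lines averaged over Dox and DMSO, added after the data were seen, 7 members were called (background 7.35%): ITGA3, ITGA4, ITGA5, ITGA6 and ITGB5 higher (background 3.89%), and ITGA9 and ITGB6 lower (background 3.46%). There the log2 difference was 3.13 for ITGA6, 1.71 for ITGB5, 1.13 for ITGA3, 1.04 for ITGA5 and -2.12 for ITGA9, and ITGAV at -0.49 ± 0.17 was not called (adjusted p = 0.0901). ITGA4 and ITGB6 passed the filter only through the line in which they had counts, so the filter partly set their place in these counts.

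The composition of the alpha class followed the lines. ITGAV made up 73.0% to 75.4% of the summed alpha-subunit CPM per kb in the SMARCB1-line libraries and 90.2% to 93.5% in the GFP-line libraries. ITGA6 took 10.7% to 11.3% and 0.905% to 1.36%, and ITGA5 10.1% to 11.6% and 3.48% to 5.49%, respectively. In the beta class ITGB1 took 96.1% to 97.9% and 97.1% to 98.7%, ITGB5 2.12% to 3.84% and 0.390% to 1.56%, and ITGB6 0% and 0.849% to 1.28%. Shares within a class add to a whole, so a larger share of ITGA6 lowers that of ITGAV. These shares are descriptions, with no test.

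**Figure D4:**
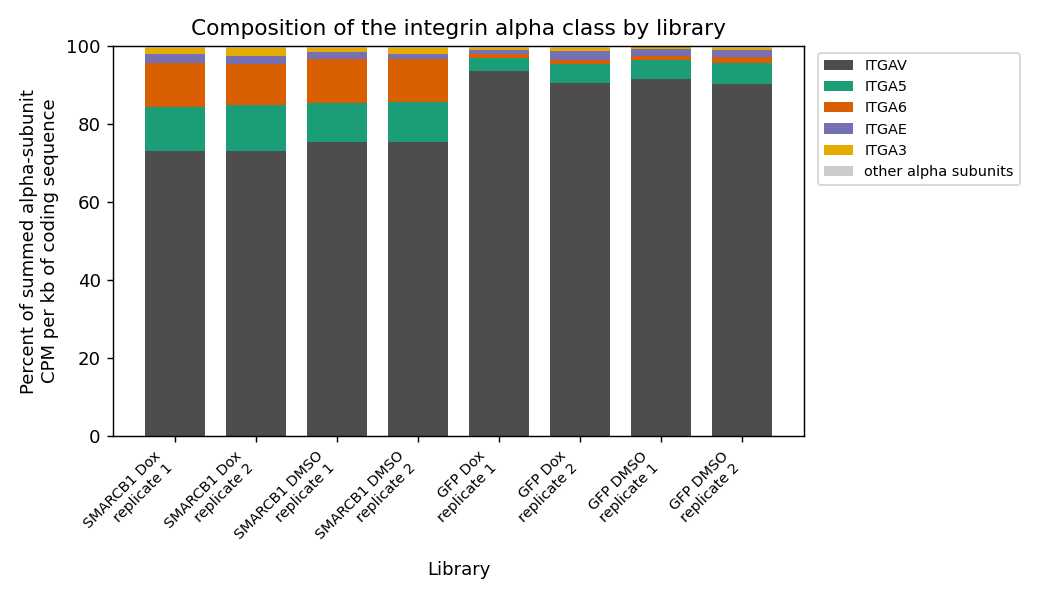
Percent of the summed integrin alpha CPM per kb of coding sequence in each of the 8 libraries (vertical axis from 0), split by subunit. ITGAV holds at most 75.4% in the SMARCB1-line libraries and at least 90.2% in the GFP-line libraries, and the ITGA6 band is wider in the former.

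Partners of the receptors were taken from fixed lists, written with earlier results of these data known. Of 28 integrin adaptors and regulators (talins, kindlins, vinculin, paxillin, kinases and others), 22 were tested and 0 were called in any of the 5 comparisons. The background was 4.97% between the lines under DMSO, 6.08% under Dox and at most 0.018% in the comparisons of Dox. ZYX (zyxin) and VCL (vinculin), named after their values were seen, passed the adjusted p between the lines under Dox but not the fold of 2, with log2 differences of 0.98 ± 0.24 and -0.91 ± 0.25 (edgeR adjusted p = 0.0251 and 0.0467). Of 11 catenins and related cadherin anchors, 8 were tested and 0 called, and of 6 EMT transcription factors, 3 were tested and 0 called. At the background shares above, lists this short would hold few calls, so 0 says little about these genes. At an unadjusted p below 0.05, edgeR gave 5 adaptors, 1 catenin and 0 EMT factors between the lines under DMSO (background 13.9%), and 3, 1 and 0 under Dox (background 18.7%).

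Of 23 integrin ligands listed, 8 were tested. Between the lines, 2 were called under DMSO (background 4.97%), 1 higher and 1 lower in the SMARCB1 line, and 4 under Dox (background 6.08%), 3 higher and 1 lower. Their difference from the other lists was not tested. The fibronectin gene FN1, named here after its values were seen, was not tested, with at most 6 counts in a library.

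VTN (vitronectin), a ligand of ITGAV with ITGB5, had 20 and 13 counts in SMARCB1 Dox, 16 and 24 in SMARCB1 DMSO, 147 and 90 in GFP Dox, and 176 and 203 in GFP DMSO. The lines did not overlap in CPM. VTN was lower in the SMARCB1 line, with a log2 difference of -2.69 ± 0.43 under DMSO (edgeR adjusted p = 0.00118) and -3.34 ± 0.45 under Dox (adjusted p = 0.000231).

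THBS1 (thrombospondin-1) had 346 and 431 CPM in SMARCB1 Dox, 525 and 579 in SMARCB1 DMSO, 210 and 135 in GFP Dox, and 110 and 117 in GFP DMSO. It was higher in the SMARCB1 line by 2.28 ± 0.27 on the log2 scale under DMSO (edgeR adjusted p = 6.76e-05) and by 1.17 ± 0.26 under Dox (adjusted p = 0.0127). The 4 libraries of each line were disjoint, and the Dox effects of the lines differed by -1.11 ± 0.36, which was not called (adjusted p = 0.981).

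CCN1, a matricellular ligand of ITGAV and ITGA6 integrins, had 56.5 and 77.3 CPM in SMARCB1 Dox and 23.8 and 30.7 in GFP Dox, and was higher by 1.29 ± 0.26 (edgeR adjusted p = 0.00683). Under DMSO it had 46.2 and 48.4 against 30.9 and 30.8 CPM, which was not called (adjusted p = 0.267). ICAM1, the ligand of leukocyte beta-2 integrins, had 73.3 and 60.05 CPM in SMARCB1 Dox and 25.1 and 38.6 in GFP Dox, and was higher by 1.07 ± 0.28 (adjusted p = 0.0352). Under DMSO it had 57.2 and 78.2 against 36.7 and 45.4 CPM (adjusted p = 0.202). The Dox effects of the lines differed by 0.67 ± 0.36 for CCN1 and by 0.34 ± 0.39 for ICAM1, and neither was called (edgeR adjusted p = 0.981 for each). The calls of ICAM1, THBS1 and CCN1 under Dox were lost without SMARCB1 Dox replicate 2, where fewer genes were called in all. That of THBS1 was also lost without GFP Dox replicate 2, where its log2 difference was 0.89. The ICAM1 call was also lost without SMARCB1 Dox replicate 1, GFP Dox replicate 1, GFP DMSO replicate 1 or GFP DMSO replicate 2. In each of these ICAM1 fits fewer genes were called in all.

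**Figure D5:**
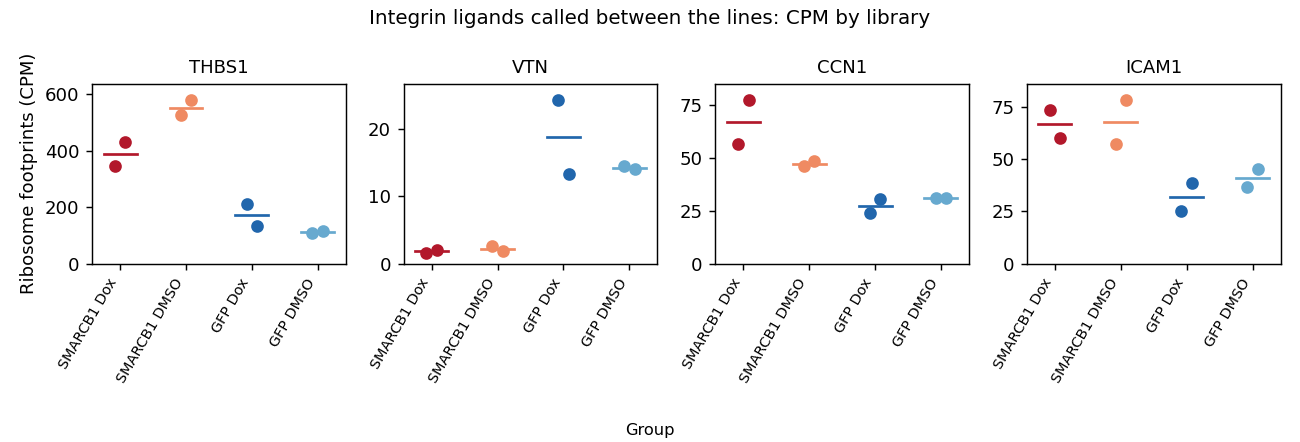
CPM (vertical axes from 0, a separate scale per gene) of the 4 integrin ligands called between the lines. Points are the 2 libraries of each group and short lines their mean. VTN lies below 3 CPM in SMARCB1 cells and above 13 in GFP cells, while THBS1, CCN1 and ICAM1 lie higher in the SMARCB1 line.

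Markers of other cell types were read beside the line difference. Of 6 leukocyte markers, 4 were at 0 in all libraries, including PTPRC, and their sum reached 0.0779 to 0.50015 CPM in SMARCB1 libraries and 1.64 to 3.47 in GFP libraries, almost all from CSF1R, with 0 to 3 counts against 15 to 40. ITGA4 lay in the other direction. All 4 platelet markers were at 0, and 5 endothelial markers summed to at most 0.634 CPM. The sum of 8 epithelial markers, set by the keratins KRT8 and KRT18, was 1972 to 3396 CPM in SMARCB1 libraries and 3703 to 4238 in GFP libraries. Singly, both keratins overlapped between the lines. KRT8 had 1226 to 2009 CPM in SMARCB1 libraries and 2003 to 2869 in GFP libraries, and KRT18 745 to 1387 and 1108 to 1929. The other epithelial markers were low, with at most 11 counts per library for EPCAM and 0 in all for GRHL2. They did not share a direction: EPCAM, CLDN4 and CLDN7 had their highest counts in GFP libraries, and ESRP1 and KRT19 in a SMARCB1 library. The sum of 6 mesenchymal markers was 3394 to 4776 and 3381 to 4438 CPM, but its members lay in opposite directions. COL1A1 had 39.1 to 53.7 CPM in SMARCB1 libraries and 1001 to 1480 in GFP libraries, and VIM 2435 to 3382 and 1211 to 1621. PDGFRB had 143 to 166 and 213 to 273 CPM, and COL1A2 overlapped between the lines. ACTA2 and THY1 were low, with at most 13 and 3 counts in a library. The 6 neural markers summed to 1.76 to 8.02 and 5.46 to 10.8 CPM. Among them TUBB3 had 0.753 to 2.69 and 3.80 to 6.65 CPM, SYP overlapped, and the others had at most 2 counts in a library. The part of these differences in those of the integrins was not tested.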

How the data were processed

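Ribosome-protected fragments of 8 G401 libraries were analysed. The authors deposited raw counts per gene, made with STAR on hg38 and HTSeq in its strict intersection mode on coding sequences of GENCODE annotation 42. Tool versions, strand option, adapter trimming and ribosomal RNA removal are not given in the sources used here. The 5 HTSeq rows of reads without a gene were left out of totals and tests. Symbols, positions and coding lengths came from annotation 44, and 311 IDs had no symbol there. RefSeq promoters were matched by symbol for 29 members.

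Low counts were removed by filterByExpr, totals were scaled by TMM, and edgeR 4.0.16 (R 4.3.3) was fitted by quasi-likelihood to all 8 libraries with 1 term per group. Genes were called at a Benjamini-Hochberg adjusted p below 0.05, over all genes tested, and a fold above 2, and standard errors were derived from the F statistic. Bounds against 0 counts take 3 counts over the group and cover counting error only. The test was checked on simulated data. Named with full values were called members and, in each class, the 3 members highest per kb, and of the partner lists the called genes. Alternatives were DESeq2's size factors, library size alone, the DESeq2 1.42.0 Wald test, no filter, at least 10 counts in every library, the groups compared alone, robust quasi-likelihood, a block for the replicate number, leaving out each library, and, added after the data were seen, the lines averaged over treatments. For levels they were the longest coding transcript and unscaled totals. The members, lists and tests were chosen with earlier results of these data known. Replicates differed by more than sampling noise (chi-square over its degrees of freedom, 14.8 to 46.0).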

Additional observations from a re-analysis of the deposited data

How the results depend on the processing

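The absence of called members between Dox and DMSO, in either line and for the difference between the Dox effects of the lines, held under every alternative run. That absence describes 2 libraries a group. Over all genes, the fit without a filter called 46 in the SMARCB1 line, 14 in the GFP line and 15 for the difference between the effects. The main fit called 2, 0 and 0. Genes were also called in the GFP line and for that difference without GFP Dox replicate 2, a fit with 1 library in that group. Between the lines under DMSO the 3 called members became 5 with DESeq2's Wald test, 5 without a filter, 5 with the groups compared alone (in each case 3 higher and 2 lower) and 1 at a minimum of 10 counts in every library, which removes ITGA4 and ITGB6. Over all genes the 552 calls became 636, 649, 688 and 288 in the same order. Averaging the lines over Dox and DMSO gave 7 members, and 816 calls over all genes. ITGB5 and ITGA9 were added with DESeq2 (adjusted p = 0.0412 and 0.0207). Between the lines under Dox the called members numbered 4 to 6 under the other settings and 7 for the averaged lines. Over all genes, settings that kept all 8 libraries gave from 377 calls under Dox, at a minimum of 10 counts, to 833 without a filter. The 4 partner genes called there became 2 with the groups compared alone, 2 for the averaged lines and 1 to 7 on leaving out 1 library, with 1 without SMARCB1 Dox replicate 2 and 7 without GFP Dox replicate 2. Without GFP Dox replicate 2 the genes called between the lines under Dox rose from 675 to 1372. Among the named differences recomputed, only uncalled Dox effects changed sign. That of ITGA6 in the SMARCB1 line ran from -0.0089 (without SMARCB1 DMSO replicate 2) to 0.43 on leaving out 1 library, and that of ITGB6 in the GFP line from -0.015 to 0.24, below 0 without GFP Dox replicate 1 or GFP DMSO replicate 1. The mean levels per kb of the 3 highest members of each class moved by less than the within-group SD pooled over the 4 groups, with ITGB1 at 770 in place of 684 CPM per kb for the longest coding transcript. Library size alone moved the median log2 difference of all genes from -0.03 to 0.16 for the difference between the Dox effects and from -0.01 to 0.11 between the lines under Dox. The groups compared could not be fitted alone for the difference between the Dox effects of the lines, which takes all 4 groups.

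Replicate numbers did not pair the libraries by the rule applied, with correlations of same-numbered deviations from 0.045 to 0.280. With the replicate number as a block, 3 members were called between the lines under DMSO, 5 under Dox and 0 in each comparison of Dox, and partner genes numbered 2, 5 and 0. Of the 11097 genes tested, that fit called 603 between the lines under DMSO and 734 under Dox. In the comparisons of Dox it called 13 in the SMARCB1 line, 0 in the GFP line and 0 for the difference.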
